A study of Homo sapiens with 8 samples.

Results

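Heme and iron handling was described through 10 genes: HMOX1, BLVRB, FTL, FTH1, TFRC, TFR2, SLC40A1, SLC11A2, HAMP and IREB2. Their members on the array were the probe sets that the platform annotation assigns to exactly 1 of these symbols or an older alias. The rule found 20 probe sets for 8 of the 10 genes, among 41091 probe sets with exactly 1 symbol and 54675 in all. No probe set in the annotation used here carried FTH1 or IREB2 alone, and their expression was not analysed here. RNA came from HepG2, a human hepatocellular carcinoma line kept in serum-free medium after serum starvation, whose length the labels give in 2 ways. Control cultures received medium alone and treated cultures received 3 µM quercetin, a plant flavonol that binds iron, and both were collected at 2, 4, 12 and 24 h. There was 1 array for each treatment and time, 8 in all. The p-values thus measure the spread between these arrays, pooled in large part over genes, and not that between cultures treated alike. HepG2 is 1 transformed line, and all RNA was from whole cultures, in which fewer expressing cells and less RNA per cell cannot be told apart.

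Cells take up iron bound to transferrin through the transferrin receptor and store it in ferritin. Heme oxygenase opens heme to biliverdin and frees its iron, and biliverdin reductases carry the pigment on to bilirubin. Iron-regulatory proteins bind stem-loops called iron-responsive elements in some mRNAs of iron handling. In the leader of ferritin mRNA they block translation, and behind the coding region of transferrin receptor mRNA they stabilise it. Iron export through ferroportin is held down by hepcidin, the peptide hormone that hepatocytes secrete and that BMP and IL-6 signals induce.

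Values are log2 expression from RMA, and a difference of 1 is a doubling. For each gene the brightest of its probe sets was used, and the gene was tested when the mean of that probe set lay above 7.43, the median over all probe sets. All 8 measured members passed, among 13298 genes tested. A gene was called when limma's p-value, adjusted over these 13298 genes, was under 0.05.

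The arrays held hepatocyte RNA: 8 of 9 hepatocyte markers had a probe set, and all 8 lay between 11.46 and 15.09. Of the erythroid markers, 5 of 10 had a probe set and 2 of these were above the cutoff, led by SLC4A1 at 8.79, and 2 of 6 measured macrophage markers were above it. The summed level of the erythroid list was 9.96 to 10.45 in control and 10.10 to 10.51 with quercetin, and that of the macrophage list 10.05 to 10.30 and 10.03 to 10.37, so the arms overlapped. The 18S rRNA signal ranged from 7.29 to 12.01 over the arrays. The 2 h pair stood apart: its quercetin array was 3.44 higher than its control in 18S signal and 0.85 higher in spike-in signal, and the part of this in any result was not tested. The signs of RNA quality also differed between times, without a shared direction. The 18S signal read 8.57, 11.52, 7.35 and 9.82 in control at 2, 4, 12 and 24 h. With quercetin it read 12.01, 11.62, 7.29 and 9.16. In control, ACTB read by its 3' probes exceeded its 5' reading by 0.88, 1.12, 1.40 and 1.36. This excess was 1.11, 1.17, 0.88 and 1.39 with quercetin. For GAPDH it was lower at 24 h (control 0.41, quercetin 0.42) than at 2 h (control 0.47, quercetin 0.56). The part of these signs in the time calls was not tested. For each named gene called from 2 to 24 h, the value without the control array at 2 h is also given. Its 2 h level rests on the quercetin array alone, so a gene that this array read low shows a larger rise. Such a larger value does not show that the rise holds. TFRC, which this array read below control, rose by 0.45 without the control array at 2 h and by 0.26 without the quercetin array. Over all genes limma called fewer at 24 h and at 12 h without the quercetin array at 2 h than with all arrays. Beyond HMOX1 and TFRC, the 24 h value without the quercetin array at 2 h is not given.

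Hepcidin mRNA fell over the time course in both arms. HAMP read 12.34, 11.94, 11.59 and 11.57 in control at 2, 4, 12 and 24 h. With quercetin it read 12.46, 12.20, 11.95 and 11.71. Both arms were lower at each later time, and both arrays at 24 h lay below both at 2 h. From 2 to 12 h HAMP fell by 0.63 ± 0.13 (SE, 2 arrays per time; limma adjusted p = 0.00892), and from 2 to 24 h it fell by 0.76 ± 0.13 (adjusted p = 0.000281), to 0.590 of its 2 h level. The fall to 24 h was 0.77 in control and 0.75 with quercetin. HAMP was called at 24 h in all 19 alternatives run (differences of -0.99 to -0.43, adjusted p of 9.95e-06 to 0.0155). Without the control array at 2 h it was -0.70 (adjusted p = 0.00481), where the lone 2 h array is assumed to vary like the others. At 12 h no member was called when either 2 h array was left out (smallest adjusted p of a member 0.0515 without control and 0.0667 without quercetin).

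The 250 bases before the HAMP start site carry letters of both pathways that induce hepcidin, and are shown for that reason (RefSeq, GRCh38.p14, chr19:35282278-35282527, plus strand). Capitals mark GGCGCC, the core of a BMP response element, and TTCNNNGAA, the letters of a STAT site, both searched on both strands.
HAMP promoter: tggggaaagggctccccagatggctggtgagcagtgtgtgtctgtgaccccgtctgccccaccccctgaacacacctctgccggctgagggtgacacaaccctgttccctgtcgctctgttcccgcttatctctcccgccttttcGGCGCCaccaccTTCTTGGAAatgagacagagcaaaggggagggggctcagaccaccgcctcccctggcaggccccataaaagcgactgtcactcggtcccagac
The BMP letters begin 105 bases before the start and the STAT letters 93 bases before it. Of 35116 promoter windows of this length, 16.4% held the BMP letters and 6.57% the STAT letters. Among the 7 members with a window, HAMP was the 1 gene with the STAT letters. HMOX1, TFR2 and FTH1 had no window. A match is a description of the sequence and not a bound site.

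HAMP was also higher with quercetin at every time, although this did not pass the test. The quercetin minus control difference was 0.13, 0.26, 0.36 and 0.14 at 2, 4, 12 and 24 h, with a mean of 0.22 ± 0.09, or 1.17-fold. Its unadjusted p was 0.0234 and its adjusted p 0.844. The ± values here and elsewhere are limma's SE, which takes part of its spread from other genes. The SD of the HAMP difference over the 4 times was 0.11. The mean lay between 0.18 and 0.27 over 14 alternatives, and the difference was positive at all 4 times under all 3 other scalings of the arrays.

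**Figure D1:**
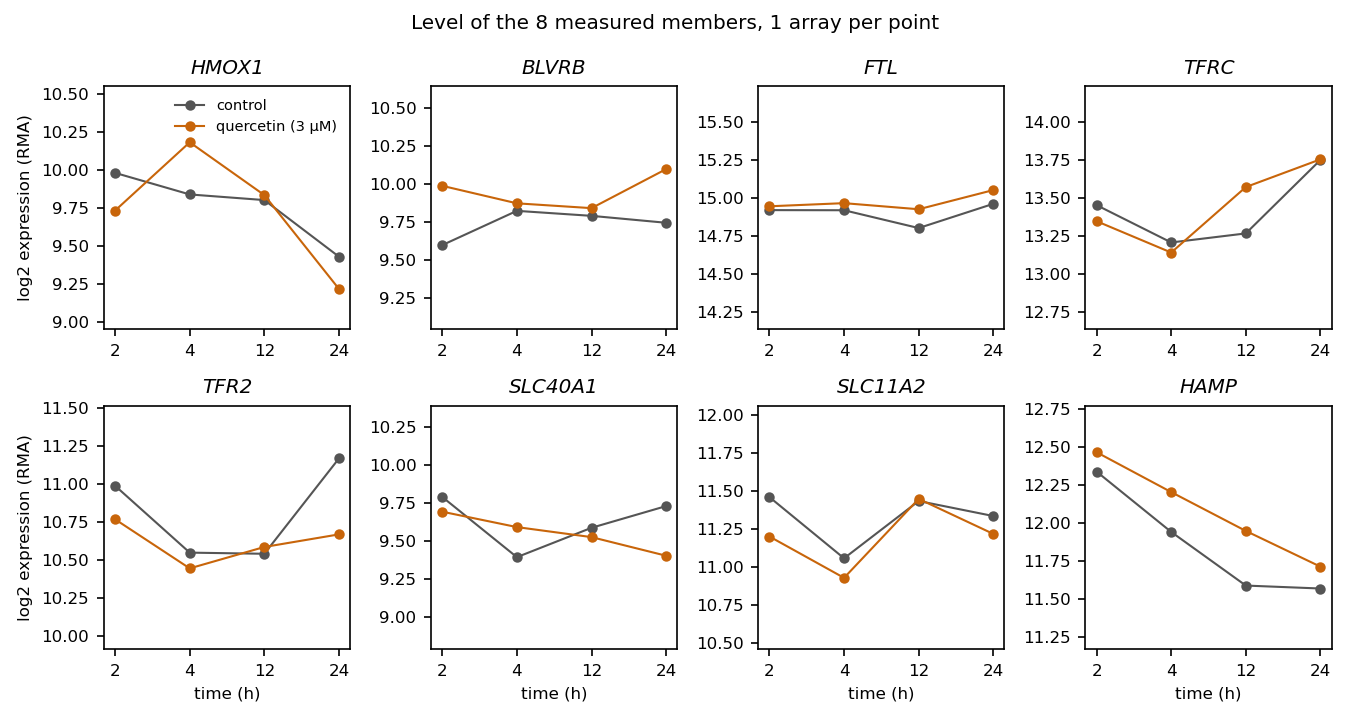
Log2 expression (RMA, vertical axes, each spanning 1.6 units) of the 8 measured members at 2, 4, 12 and 24 h (horizontal axes, evenly spaced), with 1 array per point, control in grey and 3 µM quercetin in orange. HAMP goes from 12.34 to 11.57 in control and from 12.46 to 11.71 with quercetin, while FTL stays between 14.80 and 15.05.

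Heme oxygenase 1 mRNA was lowest at 24 h in both arms. HMOX1, the inducible enzyme that opens the heme ring, read 9.98, 9.84, 9.80 and 9.43 in control and 9.73, 10.18, 9.83 and 9.22 with quercetin at 2, 4, 12 and 24 h. Both 24 h arrays lay below all the others, and the highest was quercetin at 4 h. The share of all genes with this pattern was not counted, and 18.5% had both 24 h arrays below both 2 h arrays. HMOX1 fell by 0.53 ± 0.18 from 2 to 24 h (adjusted p = 0.0437), to 0.691 of its 2 h level. The fall was 0.55 in control and 0.52 with quercetin. Of 19 alternatives, 10 kept this call, and their adjusted p ran from 0.00515 to 0.299 over all 19. The difference was -0.38 without the control array at 2 h (adjusted p = 0.240), -0.68 without the quercetin array at 2 h (0.0703), -0.66 without control at 24 h (0.102) and -0.41 without quercetin at 24 h (0.299). Against 4 h, a reference chosen after the data were seen, it was -0.69 (adjusted p = 0.00515).

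Quercetin gave no shared direction in HMOX1. From the first time to the last the differences were -0.25, 0.34, 0.03 and -0.21. Their mean was -0.02 ± 0.13 (adjusted p = 0.984), with an interval (95%) from -0.29 to 0.25, and the sign turned after cyclic loess (0.04) and quantile normalization (0.06). The difference at 4 h lay just inside the central 90% of all genes at that time, which ran from -0.35 to 0.35. Over the 8 arrays the genes whose values were most like those of HMOX1 were MRAS (Pearson r = 0.98), MARS2 (0.97) and ZNF280B (0.97). They were the 3 highest of 13297 genes and share the arrays with HMOX1.

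BLVRB, which reduces biliverdin and flavins, was higher with quercetin in every pair. It read 9.60, 9.82, 9.79 and 9.74 in control and 9.99, 9.87, 9.84 and 10.10 with quercetin at 2, 4, 12 and 24 h. All 4 quercetin arrays lay above all 4 control arrays, though narrowly, with 9.84 as the lowest quercetin value and 9.82 as the highest control value. The share of all genes with this pattern was not counted. The differences were 0.39, 0.05, 0.05 and 0.35, so the 2 and 24 h pairs carried most of the mean of 0.21 ± 0.12 (adjusted p = 0.865). The mean was 0.15 without the 2 h pair. The small 12 h difference turned to -0.02 after cyclic loess and after quantile normalization. From 2 to 24 h BLVRB differed by 0.13 ± 0.18 (adjusted p = 0.654).

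Ferritin light chain was among the brightest signals of the table. FTL, the ferritin subunit that helps to nucleate the iron core, read 14.92, 14.92, 14.80 and 14.96 in control and 14.95, 14.97, 14.93 and 15.05 with quercetin. The highest value of any probe set was 15.31. The quercetin difference was 0.03, 0.05, 0.12 and 0.09, with a mean of 0.07 ± 0.05 (adjusted p = 0.867). The other FTL probe set differed by 0.02, 0.07, 0.22 and 0.12, thus positive at the same 4 times. At 2 h the sign turned after median centring (-0.04) and at 12 h after cyclic loess (-0.08). Both FTL probe sets are of the kind whose probes can match related transcripts, and FTL has processed pseudogenes, so their signal may hold other copies. Over time FTL differed by 0.07 ± 0.07 from 2 to 24 h (adjusted p = 0.526).

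The start of FTL mRNA holds the loop letters of its iron-responsive element, through which iron acts on translation and not on the mRNA level measured here. The site is shown because it is the control point of this member (RefSeq, GRCh38.p14, chr19:48965329-48965358, plus strand), with the loop letters CAGTGN in capitals.
FTL leader site: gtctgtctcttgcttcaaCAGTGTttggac
The loop letters begin at base 39 of the transcript. Of 35116 windows, 6.36% held CAGTGN in the sense strand of the first 50 transcribed bases, and among the members HAMP held it too, at base 24. These letters alone do not make a stem-loop.

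Transferrin receptor mRNA rose late in both arms. TFRC, the receptor for iron-loaded transferrin, read 13.45, 13.21, 13.27 and 13.75 in control and 13.35, 13.14, 13.57 and 13.75 with quercetin at 2, 4, 12 and 24 h. Both 24 h arrays lay above all the others. How many of all genes did so was not counted, and 37.6% had both 24 h arrays above both 2 h arrays. TFRC rose by 0.35 ± 0.11 from 2 to 24 h (adjusted p = 0.0250), or 1.28-fold, while the median of all genes was 0.09. It rose by 0.58 from 4 to 24 h (adjusted p = 0.000282). The second brightest TFRC probe set rose by 0.74 from 2 to 24 h (adjusted p = 0.00123 in the fit of every probe set), and another, near the cutoff, differed by 0.34 (adjusted p = 0.389). The size depended on the scaling: it was 0.16 after cyclic loess (adjusted p = 0.174) and 0.19 after quantile normalization (0.0805), which moved the median of all genes from 0.09 to -0.02 and -0.03. Of 19 alternatives, 10 kept the call, and the adjusted p ran from 0.000282 to 0.332. It held without the control array at 2 h (0.45, adjusted p = 0.0363) and was lost without quercetin at 2 h (0.26, adjusted p = 0.332), without the control or quercetin array at 4 h (adjusted p = 0.0505 and 0.0502) and without that at 24 h (0.214 and 0.131).

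TFRC had no shared quercetin direction, with differences of -0.11, -0.07, 0.30 and 0.004 and a mean of 0.03 ± 0.08 (adjusted p = 0.950). The largest was in the 12 h pair, where the 3' minus 5' difference of ACTB, a sign of RNA integrity, was 0.52 lower with quercetin. The part of that difference in the result was not tested. The TFRC difference at 12 h was 0.14 after cyclic loess and 0.09 after quantile normalization. SF3B2, HNRNPR and HNRNPK, whose products bind RNA, were most like TFRC over the 8 arrays, each with a Pearson r of 0.99.

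The TFRC promoter is shown for the hypoxia response letters that lie close to its start (RefSeq, GRCh38.p14, chr3:196082091-196082340, minus strand). Capitals mark ACGTG, searched on both strands.
TFRC promoter: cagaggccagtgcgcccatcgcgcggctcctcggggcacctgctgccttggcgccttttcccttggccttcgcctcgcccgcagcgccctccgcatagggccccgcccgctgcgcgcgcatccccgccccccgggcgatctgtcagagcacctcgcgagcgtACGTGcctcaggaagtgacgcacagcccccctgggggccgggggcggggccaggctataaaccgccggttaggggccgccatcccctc
ACGTG begins 88 bases before the start, and 18.5% of the windows held it. TFRC also held the BMP letters GGCGCC, 201 bases before the start, and a TATAAA 33 bases before it. FTL held ACGTG on the other strand. The letters TGACNNNGC of an NRF2 antioxidant response element were in none of the 11 windows of the 7 members, against 10.9% of all windows, which says only that these letters are not in these bases. HMOX1 had no window, so its promoter was not searched.

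TFR2, the second transferrin receptor, which acts in hepatocytes as an iron sensor upstream of hepcidin, was lower at the middle times than at the ends in control. It read 10.99, 10.55, 10.54 and 11.17 in control and 10.76, 10.44, 10.58 and 10.67 with quercetin. The arms differed most at 24 h, where quercetin was 0.50 lower, within the central 90% of all genes at that time (-0.51 to 0.42). The mean quercetin difference was -0.19 ± 0.12 (adjusted p = 0.865). All 3 TFR2 probe sets had a negative mean (-0.19, -0.18 and -0.30) and were lower with quercetin at 24 h, by 0.50, 0.35 and 0.62. The 24 minus 2 h value was 0.04 ± 0.16 (adjusted p = 0.892) and turned to -0.20 after cyclic loess and -0.23 after quantile normalization. From 4 to 24 h it was 0.42 (adjusted p = 0.0429).

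Ferroportin, the target of hepcidin and the route of iron out of cells, was not called in any comparison. SLC40A1 read 9.79, 9.39, 9.59 and 9.73 in control and 9.69, 9.59, 9.53 and 9.40 with quercetin. The whole range over the arrays was 0.40. The mean quercetin difference was -0.07 ± 0.13 (adjusted p = 0.943), with a 95% interval from -0.34 to 0.20, and at 24 h it was -0.33. The dimmer SLC40A1 probe set was also lower at 24 h, by 0.38. From 2 to 24 h SLC40A1 differed by -0.17 ± 0.18 (adjusted p = 0.542).

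SLC11A2, the transporter DMT1 that carries ferrous iron out of endosomes, gave different answers from its 5 probe sets. The brightest read 11.46, 11.06, 11.43 and 11.33 in control and 11.20, 10.93, 11.45 and 11.22 with quercetin. Its mean quercetin difference was -0.12 ± 0.10 (adjusted p = 0.871) and its 24 minus 2 h value -0.05 ± 0.14 (adjusted p = 0.831). A dim probe set with a mean of 7.64 fell by 0.92 from 2 to 24 h (adjusted p = 0.0216 in the fit of every probe set, which called 17.8%). It went from 8.21 to 6.66 in control and from 7.69 to 7.40 with quercetin, so the fall was 1.56 in control and 0.29 with quercetin. The other 4 probe sets had 24 minus 2 h values between -0.08 and -0.02 as the mean of both arms. In each of these the control arm was lower at 24 h than at 2 h and the quercetin arm higher. For the 2 next in level to the brightest, control was -0.32 and -0.44 and quercetin 0.16 and 0.33. At 24 h the quercetin difference was -0.12 for the brightest and 0.25, 0.28, 0.75 and 0.25 for the others by level. At 12 h the quercetin difference was 0.01 for the brightest probe set and 0.71, 0.54 and 0.43 for the next 3 by level, and -0.56 for the dimmest. SLC11A2 mRNAs with and without an iron-responsive element end differently, and the annotation does not say which of them a probe set reads.

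**Figure D2:**
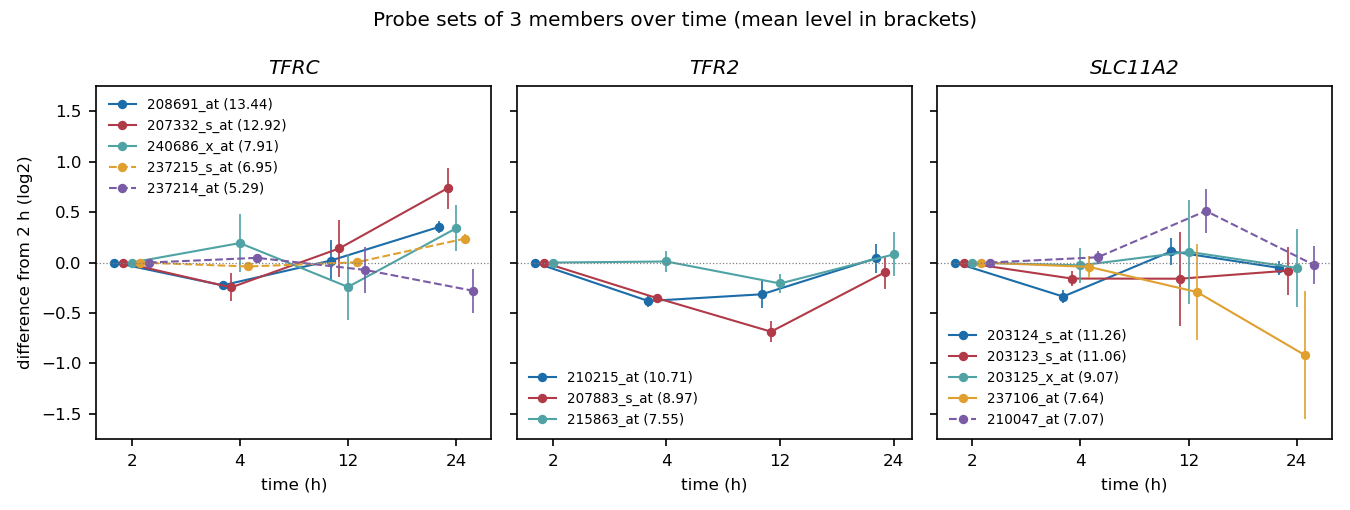
Difference from 2 h (log2, vertical axis) at each time (h, horizontal axis, evenly spaced) for every probe set of TFRC, TFR2 and SLC11A2, as the mean of both arms, with a vertical line from one arm to the other. The mean level of each probe set stands in brackets, and dashed lines mark probe sets under the cutoff of 7.43. The 2 brightest TFRC probe sets are 0.35 and 0.74 above 2 h at 24 h, and 1 of 5 SLC11A2 probe sets is 0.92 below.

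Across the members, quercetin gave 0 calls. None of the 8 members passed, and limma called 0% of the 13298 genes, with 1 member (HAMP) and 5.9% of genes at an unadjusted p under 0.05. Fitting every probe set gave 0.00447% called and no member. HAMP, BLVRB and FTL, 3 of 8 members, were higher at all 4 times, against 4.54% of all genes, and 0 of 8 were lower at all 4, against 9.28%. With 4 times an exact two-sided sign-flip test cannot go below p = 0.125, which is the value for each of these 3. Both counts are for the values as deposited, and HAMP alone stayed higher at all 4 times under all 3 other scalings. FTL turned after median centring and cyclic loess, and BLVRB after cyclic loess and quantile normalization. TFR2 was lower at all 4 times after cyclic loess and quantile normalization, and SLC11A2 after median centring. The shares of all genes under these scalings were not counted. The median member differed by -0.10, 0.05, 0.05 and -0.06 at 2, 4, 12 and 24 h, beside -0.06, -0.02, 0.05 and -0.10 for all genes. The difference at 12 and 24 h minus that at 2 and 4 h was called for 0 of 8 members and 0.368% of genes. The largest in size were -0.24 ± 0.29 for SLC40A1 and 0.24 ± 0.14 for TFRC. By the brightest probe sets, 0 members and 4.32% of genes had an unadjusted p under 0.05. In limma's fit of every probe set it was 0.0103, 0.0209 and 0.00109 for the 3 SLC11A2 probe sets next in level to the brightest. It was 0.0361 for the second brightest TFRC probe set. None passed adjustment (adjusted p = 0.487, 0.675, 0.125 and 0.835), and the share of all probe sets with such an unadjusted p was not counted.

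**Figure D3:**
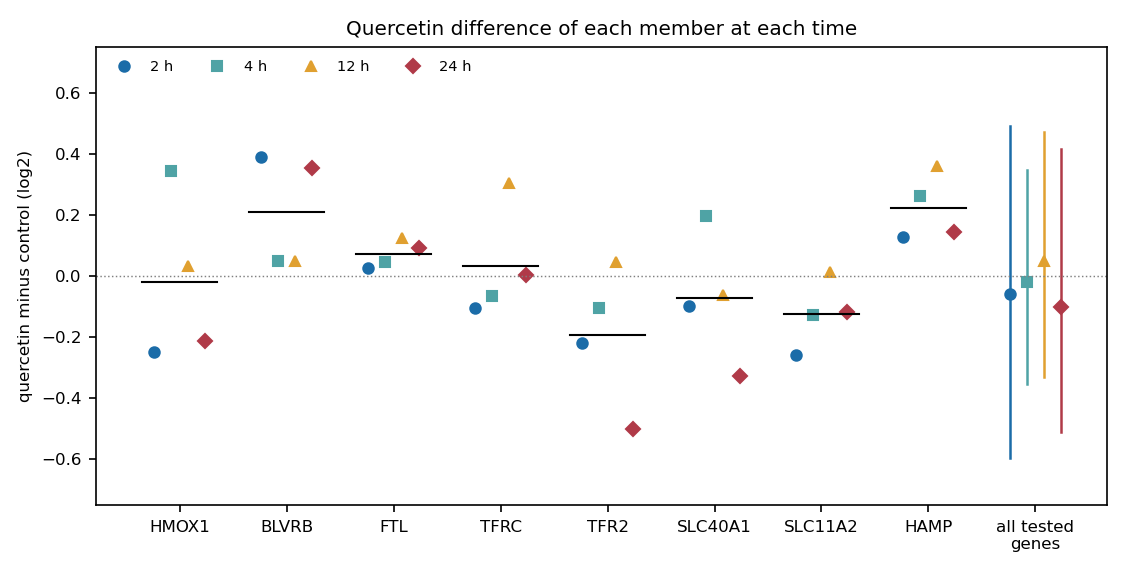
Quercetin minus control (log2, vertical axis) for each member at 2, 4, 12 and 24 h (1 array against 1 array per point), with black bars for the mean of the 4 times. At the right, points and lines show the median and the central 90% of the 13298 tested genes. HAMP, BLVRB and FTL are above 0 at all 4 times, with means of 0.22, 0.21 and 0.07.

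The time course gave 3 calls among the members. From 2 to 24 h, 1 of 8 rose (TFRC) and 2 of 8 fell (HAMP and HMOX1), where 21.3% of genes were called, 17.3% higher and 3.98% lower. Against 4 h, a reference chosen after the data were seen, TFRC and TFR2 rose and HAMP and HMOX1 fell by 24 h, 4 of 8, beside 42.3% of genes called, 32.8% higher and 9.45% lower. From 2 to 12 h HAMP was the 1 member called, against 3% of genes. From 2 to 4 h limma called 0 members and 0.534% of genes, with 3 members (HAMP, SLC11A2 and TFR2, each lower) and 17.7% of genes at an unadjusted p under 0.05. The F-test over times called the same 3 members as the 24 h contrast, 37.5% of 8, near the 38.1% of all genes. Both 24 h arrays were above both 2 h arrays for TFRC and FTL, against 37.6% of genes, and below for HAMP and HMOX1, against 18.5%.

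The rest of the heme and iron pathway was read from 6 lists of 70 genes, of which 59 were tested. Quercetin gave 0 calls in them. From 2 to 24 h 11 of 59 rose (18.6%) and 1 fell (1.69%), beside 17.3% and 3.98% of all genes. Other settings for these lists were chosen after the data were seen. After cyclic loess 6 rose and 6 fell, beside 10.9% and 7.2% of all genes, and after quantile normalization 4 and 6, beside 8.84% and 6.67%. With the mean of probe sets 5 rose and 1 fell of 54 (11% and 2.57% of all genes), and without the control array at 2 h 10 and 0 (17.2% and 3.67%). Against 4 h 26 rose and 4 fell (32.8% and 9.45%). From 2 to 12 h 2 of 59 rose and 5 fell, where limma called 3% of all genes. BMPR2 (0.92, adjusted p = 0.0185) and FLVCR1 (0.71, adjusted p = 0.0355) rose. PCBP2 (-0.63, adjusted p = 0.00180) and NFE2L2 (-0.50, adjusted p = 0.0399), named after their values were seen, fell, as did CP, SLC39A14 and ID1. With the mean of probe sets BMPR2 was 0.14, FLVCR1 0.64, PCBP2 -0.11 and NFE2L2 -0.23, none of them called. NFE2L2 also lost its call after median centring (-0.46, adjusted p = 0.0882), cyclic loess (-0.39, adjusted p = 0.0786) and quantile normalization (-0.31, adjusted p = 0.128). With quercetin 1 of 59 genes was above control at all 4 times and 5 were below, beside 4.54% and 9.28% of all genes. BMPR2 had the largest mean in size, with differences of -0.997, -0.16, -0.27 and -0.58 and a mean of -0.50 ± 0.15 (adjusted p = 0.844). The other 4 below control were NFU1 (mean -0.21) and, named after their values were seen, CIAO1 (-0.15), ISCU (-0.15) and PCBP2 (-0.13).

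In heme synthesis 1 of 7 rose. ALAS1, the first and rate-limiting enzyme of heme synthesis in liver, read 9.91, 9.90, 10.22 and 10.72 in control and 9.65, 9.99, 10.12 and 10.49 with quercetin at 2, 4, 12 and 24 h. Both arms were highest at 24 h. ALAS1 rose by 0.83 ± 0.17 from 2 to 24 h (adjusted p = 0.00145), by 0.61 after cyclic loess, 0.54 after quantile normalization and 0.92 without the control array at 2 h, all called. CPOX, a later step, had 0.36 (adjusted p = 0.145), and FECH, which inserts the iron, -0.38 (adjusted p = 0.199). The list's median was -0.18.

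In heme breakdown, transport and sensing 2 of 10 rose. FLVCR1, a transporter linked to heme export and choline uptake, rose by 0.78 (adjusted p = 0.00420), and BACH1, the heme-binding repressor of HMOX1, by 0.67 (adjusted p = 0.0222). Without the control array at 2 h FLVCR1 was 1.09, where its quercetin array at 2 h read 0.59 below control. After cyclic loess and quantile normalization FLVCR1 was 0.54 and 0.47, both called. The mean of probe sets gave 0.42 for FLVCR1 (adjusted p = 0.173) and 0.12 for BACH1 (adjusted p = 0.645), and BACH1 was 0.55 after cyclic loess (adjusted p = 0.0664) and 0.72 without the control array at 2 h (adjusted p = 0.0562). With quercetin SLC48A1, a heme importer of lysosomes, was 0.02, 0.27, 0.29 and 0.22 higher (adjusted p = 0.867), the gene counted above as higher at all 4 times.

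Among regulators of iron and ferritin turnover 2 of 7 rose. NCOA4, the receptor that sends ferritin to lysosomes, rose by 0.37 (adjusted p = 0.0208) and ISCA1, an iron-sulfur carrier, by 0.53 (adjusted p = 0.0461). Without the control array at 2 h they were 0.46 and 0.78, where the quercetin array at 2 h read 0.18 and 0.50 below control. Cyclic loess gave 0.17 and 0.30 and quantile normalization 0.21 and 0.24, none of them called, and ISCA1 was 0.39 with the mean of probe sets (adjusted p = 0.138). FBXL5, the iron-sensing ubiquitin ligase subunit for IREB2, had the largest quercetin mean in size of its list, -0.26 (adjusted p = 0.848). Of the 9 transport and plasma genes limma called 0 at 24 h, and with the mean of probe sets CP (0.54, adjusted p = 0.0374). At 12 h CP, the ferroxidase ceruloplasmin, fell by 0.60 (adjusted p = 0.0157) and SLC39A14, a zinc and iron importer, by 0.37 (adjusted p = 0.0427). Without the control array at 2 h they were -0.45 (adjusted p = 0.136) and -0.41 (adjusted p = 0.0987). With the mean of probe sets CP was -0.41 at 12 h (adjusted p = 0.247), and SLC39A14 was -0.21 after cyclic loess (adjusted p = 0.179), -0.19 after quantile normalization (adjusted p = 0.170) and -0.33 after median centring (adjusted p = 0.100).

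Among hepcidin regulators 4 of 15 rose by 24 h and 0 fell, beside 17.3% and 3.98% of all genes. After cyclic loess and after quantile normalization 2 rose and 1 fell. The one that fell there was SMAD7, the inhibitory SMAD, named after its value was seen: it was -0.50 as deposited (adjusted p = 0.0651), -0.72 after cyclic loess (adjusted p = 0.00723) and -0.73 after quantile normalization (adjusted p = 0.00862). BMPR2, a BMP receptor, rose by 1.21 (adjusted p = 0.000331), SMAD4, the shared SMAD partner, by 1.07 (adjusted p = 0.000677), and ACVR2A, another receptor, by 0.56 (adjusted p = 0.0429). SMAD5, named after its value was seen, rose by 0.59 (adjusted p = 0.0264). BMPR2 and SMAD4 were called under all 3 other scalings. Without the control array at 2 h they were 1.54 and 1.37, where the quercetin array at 2 h read 0.997 and 0.69 below control. With the mean of its probe sets BMPR2 was 0.36 (adjusted p = 0.107). The mean of the SMAD4 probe sets lay under the cutoff, so SMAD4 was not tested there. The probe sets used for BMPR2 and SMAD4 had mean levels of 8.74 and 9.04. For ACVR2A and SMAD5 cyclic loess gave 0.38 and 0.35 and quantile normalization 0.33 and 0.29, none of them called. Without the control array at 2 h ACVR2A was 0.60 and lost its call, and SMAD5 was 0.93. The quercetin array at 2 h, then the only one of its time, read them 0.38 and 0.43 below control. With the mean of probe sets ACVR2A and SMAD5 were 0.82 (adjusted p = 0.00923) and 0.46 (adjusted p = 0.146). ID1, a target of the same BMP signal and also named after its value was seen, fell by 0.56 at 12 h (adjusted p = 0.00803), by 0.57 without the control array at 2 h (adjusted p = 0.0336), and was at -0.01 at 24 h. In iron-sulfur assembly NFU1 (0.69, adjusted p = 0.00330) and LYRM4 (0.60, adjusted p = 0.00564) rose and HSPA9 fell by 0.36 (adjusted p = 0.0438), and was -0.22 without the control array at 2 h (adjusted p = 0.324) and 0.04 with the mean of probe sets (adjusted p = 0.871). HSPA9 was -0.30 after median centring (adjusted p = 0.116) and -0.58 both after cyclic loess (adjusted p = 0.00112) and after quantile normalization (adjusted p = 0.00118). NFU1 and LYRM4 were 0.74 and 0.61 without the control array at 2 h, and 0.46 and 0.36 after cyclic loess, all called. After quantile normalization they were 0.40 (adjusted p = 0.0590) and 0.33 (adjusted p = 0.0514), and LYRM4 was 0.47 with the mean of probe sets (adjusted p = 0.0775).

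**Figure D4:**
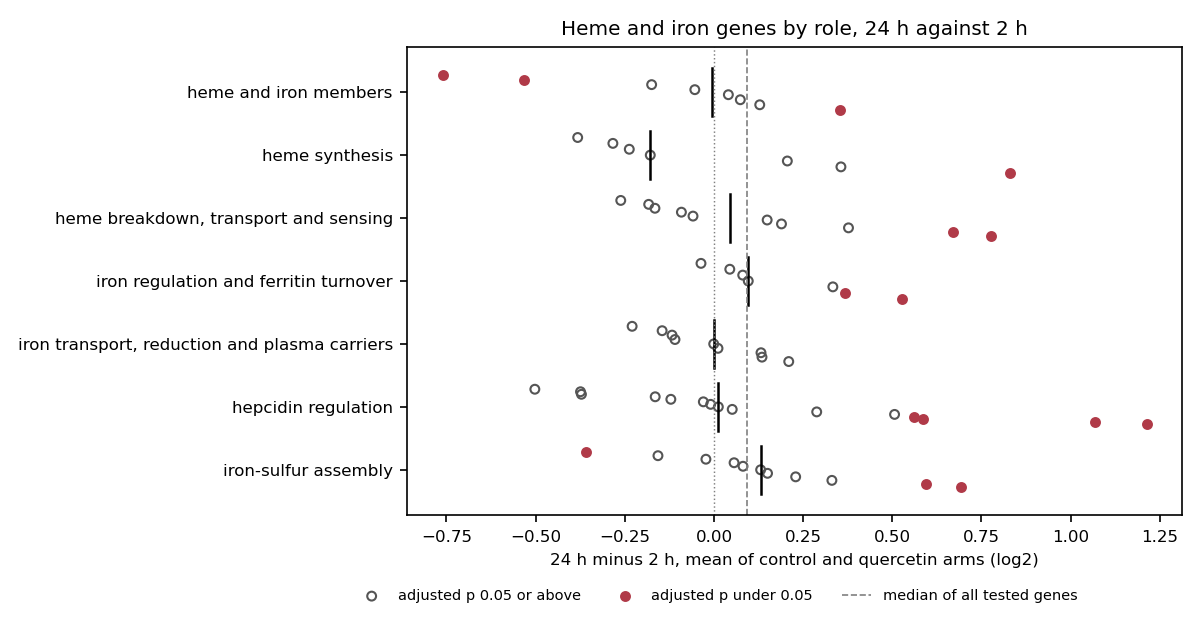
Difference of 24 h minus 2 h (log2, mean of both arms, horizontal axis) for each tested gene of the members and of 6 other heme and iron lists (rows), filled where limma's adjusted p was under 0.05. Short black bars are list medians, and the dashed line is the median of all tested genes (0.09). HAMP (-0.76) and HMOX1 (-0.53) are the 2 filled points at the left of the first row and TFRC (0.35) the 1 at its right.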

How the data were processed

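The table holds 54675 probe sets on 8 arrays. Its values are log2 expression that the authors deposited after RMA, as the submitters' processing notes name it; RMA's version and settings were not stated in those notes. The platform annotation gave the probe sets their symbols, which were updated by Entrez identifier through RefSeq (GRCh38.p14) for 41037 of 41091, and 1801 probe sets with several symbols stayed unnamed. Of 19775 genes, 6477 were dim and left out. Models were fitted with limma 3.58.1 (R 4.3.3): lmFit with time as a block plus treatment, which leaves 3 residual degrees of freedom, eBayes with trend, and Benjamini-Hochberg adjustment. With the spread that eBayes takes from other genes, the tests of this model had 21.1 degrees of freedom. A second model compared late with early quercetin differences. The code was tested on simulated data. The number of arrays sets the precision. Members, lists and the rule for named genes (all members, per list the 2 largest quercetin and the 2 largest 24 h differences, and the 3 genes most like HMOX1 and TFRC) were chosen with earlier results of these data known. Leukocyte, endothelial and fibroblast lists had 3 of 3, 2 of 4 and 3 of 5 measured markers above the cutoff.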

Additional observations from a re-analysis of the deposited data

How the results depend on the processing

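Quercetin against control and its late minus early difference gave 0 called members with other filters, probe set rules and scalings, without the eBayes trend and with each pair left out; the first also gave 0 without the time block. For 24 h against 2 h, 1 member was called with the mean of probe sets and 1 without the eBayes trend, and 1 to 3 when an array was left out. For 12 h against 2 h, 0 were called without trend and 0 with 4 h as the reference, which was chosen after the data were seen, and 0 to 1 when an array was left out. The F-test called 1 to 4 when an array was left out. Among the members, the signs that turned belonged to differences not called as deposited. Quercetin differences became 0.041 for HMOX1 after cyclic loess and 0.063 after quantile normalization, 0.0062 for SLC40A1 after quantile normalization, -0.0022 for TFRC and 0.0021 for SLC11A2 with the mean of probe sets, and 0.089 for SLC11A2 with gene-specific probe sets. When a pair was left out they ran from -0.142 to 0.0545 for HMOX1, -0.0560 to 0.0808 for TFRC and -0.162 to 0.0132 for SLC40A1. The 24 minus 2 h values became -0.0746 for BLVRB, -0.0621 for FTL and -0.197 for TFR2 after cyclic loess, -0.107 for BLVRB and -0.228 for TFR2 after quantile normalization, 0.0056 for SLC11A2 after median centring, and 0.0738 for SLC40A1 and 0.284 for SLC11A2 against 4 h. When an array was left out they ran from -0.163 to 0.244 for TFR2 and -0.145 to 0.0373 for SLC11A2. The cause of these changes was not tested. FTL had no value with gene-specific probe sets. Control and quercetin arrays were paired by time, with time as the block of the fit.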
